A study of Mus musculus with 12 samples.

Results

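The genes described here encode 5 families of drug-metabolising enzymes: the UDP-glucuronosyltransferases (Ugt), the cytosolic sulfotransferases (Sult), the carboxylesterases (Ces), the flavin-containing monooxygenases (Fmo) and the aldehyde oxidases (Aox). They were taken by symbol from a count table of 53599 genes. Of 79 rows whose symbol began with Ugt1 to Ugt3, a numbered Sult, Ces1 to Ces5, a numbered Fmo or a numbered Aox, 7 carried a pseudogene suffix and were left out. Of the 72 that remained, 46 had at least 10 counts in at least 3 of the 12 libraries and are the members: 16 of 21 Ugt genes, 10 of 21 Sult, 13 of 19 Ces, 5 of 7 Fmo and 2 of 4 Aox. The other 26 stayed below that minimum, and 12 of them had 0 counts in every library. The count minimum was reached in all 12 libraries by 29 members, and 3 members passed through 1 group only, Ugt1a2 and Ces2f through BEC among them. Ugt1a2, Ces2f and Sult5a1 lay just inside the limit, with 3 libraries each, and Aox2, Ugt2b38 and Ces2h just outside it, with 1.

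The libraries came from livers of mice labelled WT. All mice had received AAV8-TBG-Cre, which drives Cre from a hepatocyte promoter so that hepatocytes and their descendants carry EGFP, and from 1 week later a diet with 0.1% DDC for 8 weeks. DDC is a porphyrinogenic compound that injures the bile ducts and under which some hepatocytes take on biliary features, the conversion that the study followed. Cells were sorted into 4 groups of 3 replicates: early (EGFP+ Cd24- Epcam-), intermediate (EGFP+ Cd24+ Epcam-), full (EGFP+ Cd24+ Epcam+) and BEC (EGFP- Epcam+), the resident biliary epithelial cells. The early group was fed DDC like the others, so no group holds hepatocytes of an uninjured liver. The order of early, intermediate and full follows the conversion, while BEC are a separate population and not a stage after full. Sex is not given in the labels, and every library held 976 to 1556 counts of the Y-linked gene Ddx3y and 2 to 10 of Xist, as male cells do. Strain, age, the share of hepatocytes that Cre marked and whether animals were pooled are not given in the sources used here. Nothing states that the replicates came from separate animals, so p-values measure only the spread between these libraries.

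Hepatocytes make foreign and endogenous lipophilic molecules water-soluble. Fmo enzymes and Aox enzymes oxidise nitrogen, sulfur or aldehyde and heterocyclic carbon groups, Ces enzymes split esters and amides and also act on stored triglyceride, and Ugt and Sult enzymes then attach glucuronic acid or sulfate, which lets the product leave by transporters in bile or blood. In the liver these enzymes are abundant in hepatocytes. The Ugt1a genes form a single locus in which each gene has a first exon and promoter of its own and all share the last exons.

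The Ugt1a promoters are shown because neighbouring genes of that locus differed in opposite directions between early and BEC. Ugt1a9 and Ugt1a1 were lower and Ugt1a7c was higher in BEC, and Ugt1a2 is shown as a further gene of the locus whose highest libraries were BEC. The windows run from 250 bases before to 50 bases after the annotated start (RefSeq, build GRCm38.p6, 5′ to 3′). The capital marks the base at the annotated start.

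Ugt1a9, chr1:88070529-88070828, plus strand: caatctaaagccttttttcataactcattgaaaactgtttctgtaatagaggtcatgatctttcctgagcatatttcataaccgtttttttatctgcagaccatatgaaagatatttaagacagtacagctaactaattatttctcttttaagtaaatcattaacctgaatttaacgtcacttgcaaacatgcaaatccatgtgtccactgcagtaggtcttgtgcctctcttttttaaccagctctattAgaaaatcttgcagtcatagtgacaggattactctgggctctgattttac
Ugt1a7c, chr1:88094751-88095050, plus strand: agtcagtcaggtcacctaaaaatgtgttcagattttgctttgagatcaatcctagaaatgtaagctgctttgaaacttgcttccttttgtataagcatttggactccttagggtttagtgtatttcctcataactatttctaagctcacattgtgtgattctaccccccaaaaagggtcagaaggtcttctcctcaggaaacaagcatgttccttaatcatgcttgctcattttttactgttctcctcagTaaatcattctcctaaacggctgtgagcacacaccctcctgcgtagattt
Ugt1a2, chr1:88200361-88200660, plus strand: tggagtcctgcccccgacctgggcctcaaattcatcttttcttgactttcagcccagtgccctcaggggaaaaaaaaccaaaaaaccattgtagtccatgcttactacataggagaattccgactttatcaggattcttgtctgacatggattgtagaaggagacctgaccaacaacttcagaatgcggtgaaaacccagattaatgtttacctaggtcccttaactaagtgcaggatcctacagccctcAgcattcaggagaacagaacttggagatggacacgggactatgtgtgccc
Ugt1a1, chr1:88211709-88212008, plus strand: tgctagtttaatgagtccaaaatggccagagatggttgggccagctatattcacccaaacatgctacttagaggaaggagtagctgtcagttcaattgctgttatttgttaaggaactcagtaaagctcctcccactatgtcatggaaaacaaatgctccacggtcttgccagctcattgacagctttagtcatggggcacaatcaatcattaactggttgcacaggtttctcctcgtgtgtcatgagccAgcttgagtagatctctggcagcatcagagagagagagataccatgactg

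Promoter entries were found for 38 of the 46 members, with 43 windows. The AP-1 motif TGANTCA was found in 7.81% of all 32851 windows of the table and in 8 of the 43 member windows. The HNF4 motif CAAAGTCCA was in 0.475% of all windows and in 1 member window, that of Sult1b1. The xenobiotic response element core GCGTG was in 32.4% and in 7, of 6 genes. The antioxidant response element core TGACNNNGC was in 12.4% and in 0. Both strands were searched for each, and no overlaps between motifs were removed. The 4 windows printed above held none of these letters.

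Libraries held between 15112893 and 19731887 counts. Members took 0.852% to 0.973% of the counts in early, 0.246% to 0.330% in intermediate, 0.0688% to 0.100% in full and 0.0577% to 0.0781% in BEC libraries. Levels are CPM, counts over a library size that was scaled by TMM, a factor that evens out composition. A level at or under 3 counts, which is between 0.128 and 0.273 CPM depending on the library, is treated as the floor and covers counting error only. The sum of 7 hepatocyte markers was between 96130 and 101460 CPM in early and between 2298 and 2918 in BEC, with Alb still at 1422 to 1888 CPM there. The biliary markers were higher in BEC than in early, with Krt19 at or under the floor in all early libraries and at 474 to 673 CPM in BEC. In such bulk libraries, fewer hepatocytes among the sorted cells and less RNA of a gene per cell cannot be told apart. Macrophage markers did not move together: Csf1r was at 3.80 to 4.11 CPM in early and 120 to 133 in BEC, Cd68 at 12.3 to 16.3 and 2.22 to 4.24 (edgeR adjusted p = 1.14e-05), and the 4 markers other than Csf1r summed to 17.7 to 18.4 in early and 4.14 to 20.3 in BEC. Stellate cell and fibroblast markers summed to 112 to 329 in early and 64.2 to 109 in BEC, and lymphocyte and neutrophil markers to under 1 in every library. Replicate 3 was the highest library in all 4 groups for the hepatocyte and the stellate and fibroblast sums. The same held for 12 of the 46 members, Ces3a among them. A single replicate number was highest in all groups for 15 members (32.6%), against 11.8% of the 16210 genes tested.

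Most members fell at the first and second steps. Between full and BEC their median difference was near 0 but moved when single libraries were left out. Calls in either direction covered 41 of 46 members at the first step, 37 at the second, 18 between full and BEC and 43 between early and BEC, against 54.4%, 40.7%, 21.3% and 73.1% of all genes tested. Between early and intermediate, 37 of 46 members were called lower and 4 higher by edgeR's quasi-likelihood test at a Benjamini-Hochberg adjusted p under 0.05, where 25.7% of all genes tested were called lower and 28.7% higher. The median log2 fold change of the members was -2.17, against 0.06 over all genes. Between intermediate and full, 35 members fell and 2 rose, against backgrounds of 19.8% and 20.8%, with a median of -2.41 against 0.01. Between full and BEC, 11 members were lower and 7 higher in BEC, against 10.6% and 10.7% of all genes, and the median was -0.07 against 0.00. With 1 library left out, this member median ran from -0.52 (without BEC replicate 3) to 0.16 (without full replicate 3). It was -0.15 over the 43 members with the count minimum reached in more than 1 group. Between early and BEC, 37 were lower and 6 higher in BEC, against 33% and 40%, with a median of -5.53 against 0.14. Over the 43 members that reached the count minimum in more than 1 group, 5 were higher and 11 lower in BEC than in full, Sult5a1 with counts above the minimum in 1 intermediate and 2 full libraries among the 11, and 4 higher and 36 lower in BEC than in early. Adjacent comparisons share the libraries of the group between them and are therefore not independent.

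**Figure D1:**
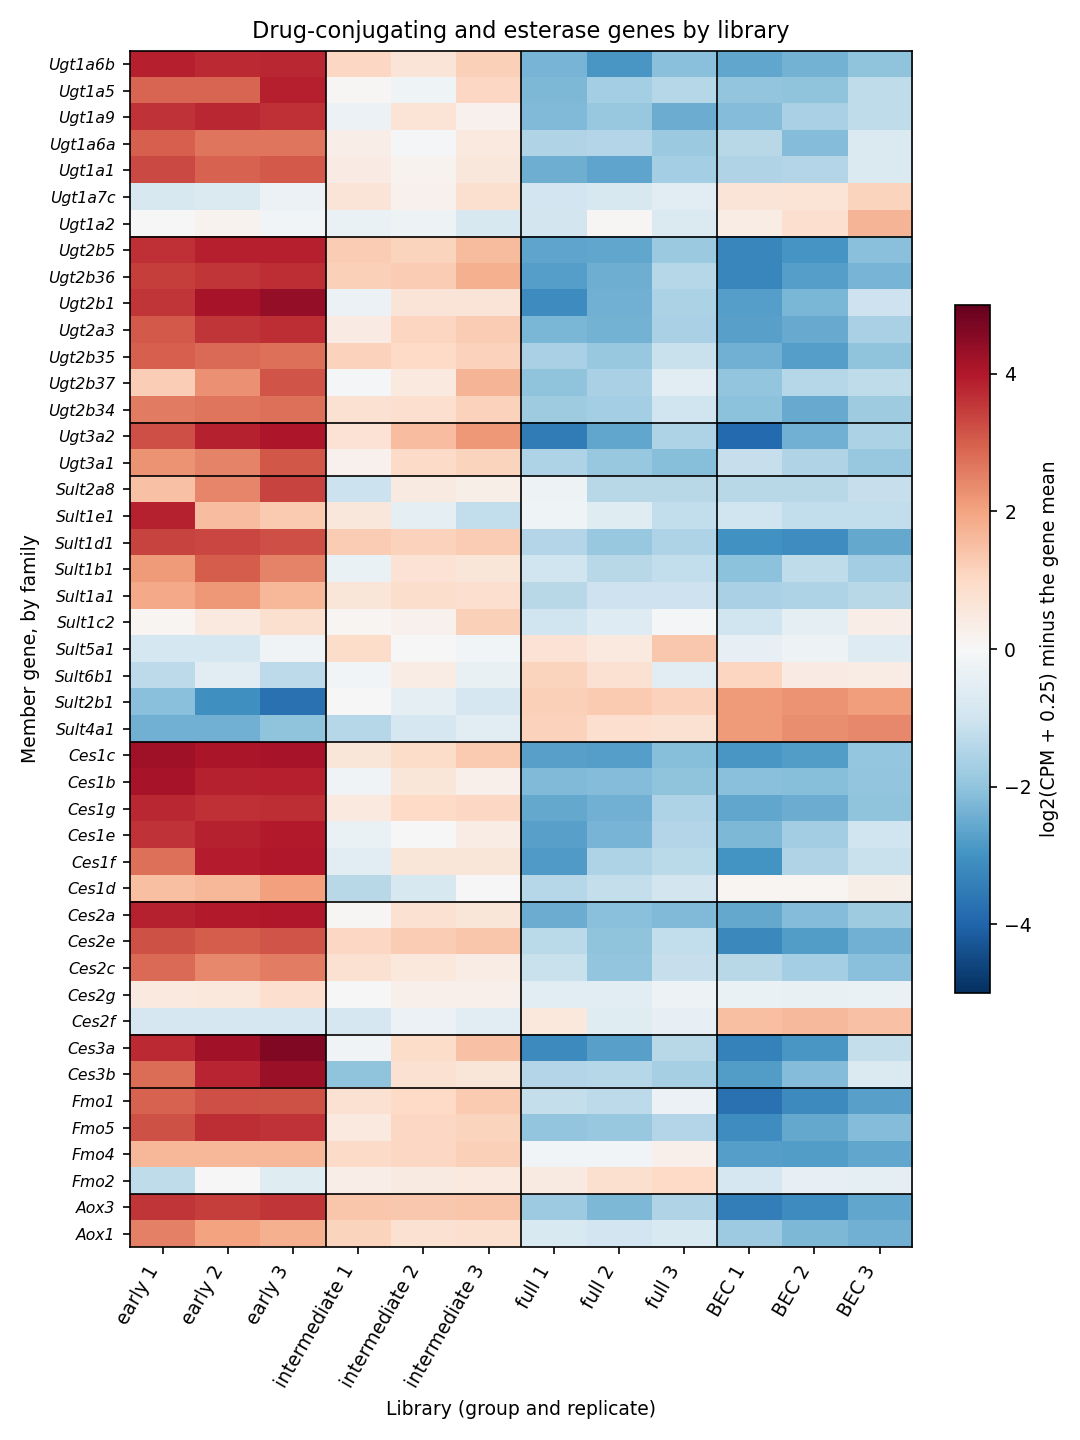
Level of 45 of the 46 members (rows, by family) in each of the 12 libraries (columns), as log2(CPM + 0.25) minus the mean of that gene, so that red is above and blue below its own mean. Most rows run from red in early to blue in full and BEC; Fmo2, Ugt1a7c, Ugt1a2, Sult2b1, Sult4a1, Sult5a1, Sult6b1 and Ces2f are among those that do not.

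By family, the summed level that was left after the first step was lowest for the carboxylesterases and highest for the sulfotransferases. In intermediate libraries the Ces sum stood at 13.4% ± 3.35 of the early mean, Fmo at 22.3% ± 3.87, Ugt at 22.7% ± 3.59, Aox at 31.3% ± 2.77 and Sult at 39.8% ± 3.5 (SD, n = 3). In full libraries the order was Ces at 2.89% ± 0.638, Ugt at 3.14% ± 1.03, Aox at 6.98% ± 0.752, Fmo at 9.51% ± 1.98 and Sult at 11.9% ± 1.03 (SD, n = 3). In BEC the Ugt sum was 2.45% ± 0.712, Sult 11.5% ± 1.08 and Ces 4.17% ± 0.655, while Aox and Fmo stood at 2.82% ± 0.363 and 3.91% ± 0.785 (SD, n = 3). Read without pairing, the full and BEC libraries overlapped for Ugt and Sult, and did not overlap for Ces, which was higher in BEC, or for Fmo and Aox, which were lower. The Ces difference lay in Ces1d: without it, a sum chosen after its values were seen, Ces stood at 2.17% ± 0.534 of early in full and 2.13% ± 0.491 in BEC (SD, n = 3), and the libraries overlapped. Fmo2 carried the place of Fmo in the order in full and BEC, but not in intermediate. Without it, also chosen after its values were seen, the intermediate libraries held 17.9% ± 3.67 of the early Fmo sum. The full libraries then held 3.45% ± 0.871 and the BEC libraries 1.47% ± 0.463 (SD, n = 3). Within the 3 same-numbered pairs of full and BEC libraries, the ratio of BEC to full was 0.754 to 0.846 for Ugt and 0.936 to 0.999 for Sult, under 1 in each pair, and 0.961, 1.03 and 0.967 for Ces without Ces1d. The hepatocyte marker sum, for reference, stood at 19.8%, 4.51% and 2.59% of early in the same groups. Every share depends on the scaling: with total counts only, Ces stood at 21.1% in intermediate and 5.27% in full and Sult at 63.1% and 21.7%, and each other share was higher too. These sums carry no test, since each is dominated by its most abundant members. Sult1a1 made up 440 of the 663 CPM of the Sult sum in early and 198 of 264 in intermediate. In BEC it was at 40.1 of 76.6 CPM, where Sult2b1 and Sult4a1, which rose, were at 19.3 and 6.31. Part of the Sult sum in BEC is therefore not a remainder of the early level. The place of Sult in the order without Sult1a1 was not computed.

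**Figure D2:**
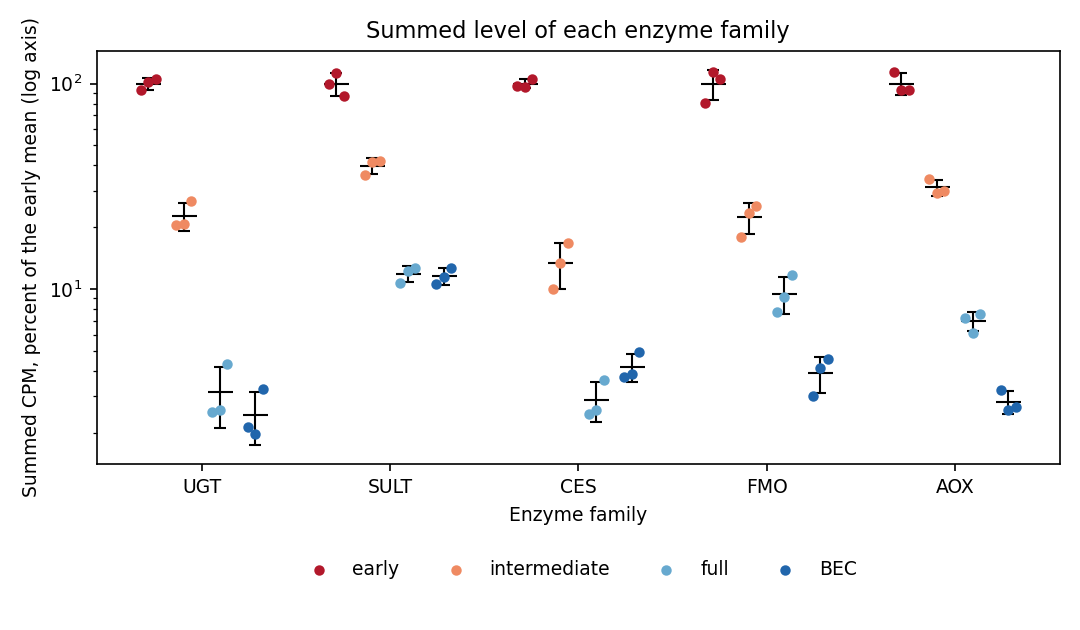
Summed TMM-scaled CPM of the members of each enzyme family as percent of its early mean (log axis), 1 point per library, with the mean and SD of 3 replicates as bars. Sult keeps the highest share in intermediate (39.8%, mostly Sult1a1). Fmo and Aox are lower in every BEC than in every full library (9.51% in full against 3.91% in BEC, and 6.98% against 2.82%). Ces is higher in BEC (2.89% in full against 4.17%, through Ces1d). With total counts only all shares are higher.

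Among the oxidising enzymes, both aldehyde oxidases fell at the first and second steps and were lower in BEC than in full. Aox3, the main liver form in mice beside Aox1, stood at 379, 354 and 386 CPM in early, at 84.2, 82.0 and 83.3 in intermediate, at 8.76, 6.60 and 11.1 in full and at 2.65, 3.40 and 5.12 in BEC. The groups did not overlap. Its log2 fold changes were -2.16 and -3.23 at the first and second steps and -1.24 for BEC against full, the last with an SE of 0.21 and an adjusted p of 0.000667 (edgeR). Aox1 was at 293 ± 77.5, 125 ± 17.5, 37.7 ± 3.01 and 15.1 ± 3.39 CPM in the 4 groups (SD, n = 3). Its log2 fold changes in the same comparisons were -1.23, -1.73 and -1.32, the last with an edgeR adjusted p of 0.000193.

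The flavin monooxygenases did not move as a family. Fmo5, an abundant liver form, fell from 1820, 2591 and 2425 CPM in early to 278, 403 and 429 in intermediate and 49.6, 53.2 and 71.0 in full, and stood at 23.0, 33.1 and 44.4 in BEC. The groups did not overlap. Fmo1 fell from 384 ± 39.6 CPM in early to 90.2 ± 17.9 in intermediate and 24.2 ± 10.3 in full, with 4.68 ± 1.68 in BEC (SD, n = 3). Fmo4 fell from 34.8 ± 0.337 to 22.7 ± 1.92 and 10.8 ± 1.94, with 1.45 ± 0.132 in BEC. Full libraries held 31.1% of the early Fmo4 level and BEC 4.16%, a log2 difference of -2.90 (SE 0.16, edgeR adjusted p = 6.81e-08), the lowest value of any member for BEC against full. Its first-step fall of 0.61 on the log2 scale (edgeR adjusted p = 0.00114) turned to a difference of 0.05 (adjusted p = 0.745) when libraries were scaled by total counts only.

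Fmo2 went the other way. It stood at 41.7, 101 and 65.5 CPM in early, at 126, 138 and 142 in intermediate, at 136, 172 and 203 in full and at 56.4, 75.9 and 73.3 in BEC. All intermediate and full libraries were above all early and BEC libraries, and early and BEC overlapped. The first step gave a log2 fold change of 0.96 (SE 0.24, adjusted p = 0.00427), the second 0.33 (adjusted p = 0.290) and BEC against full -1.31 (SE 0.24, adjusted p = 0.00133), all by edgeR. BEC against early gave -0.02 (SE 0.24, edgeR adjusted p = 0.951), with a sign that changed under other settings and a call for higher levels in BEC under total-count scaling, where the value was 0.85 (edgeR adjusted p = 0.00566). Fmo2 is best known from lung. Stellate and fibroblast markers summed to 112, 285 and 329 CPM in the early replicates, in which Fmo2 was lowest in replicate 1 too, and to 64.9 to 192 in intermediate and 49.2 to 85.1 in full, where Fmo2 was higher. None of the 8 stellate and fibroblast markers was at 0 throughout a group. Endothelial markers summed to at most 20.6 CPM in any library. The part of these cells in the Fmo2 level was not tested.

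The carboxylesterases held the most abundant member and the largest first-step falls among members with at least 5 CPM in early. Ces1c, the esterase that mice secrete into plasma, stood at 3590, 3280 and 3341 CPM in early, at 290, 365 and 470 in intermediate, at 28.9, 28.0 and 44.0 in full and at 25.0, 27.8 and 50.3 in BEC. It fell by 3.18 and 3.48 on the log2 scale over the first and second steps, and full and BEC overlapped (difference 0.03, SE 0.26, edgeR adjusted p = 0.958). Per kilobase of its longest transcript, Ces1c was the highest member in early libraries (1862 CPM per kilobase) and in intermediate (205). Ces1e and Ces1b had the largest first-step falls of all members with at least 5 CPM in early, at -3.83 (SE 0.30) and -3.78 (SE 0.18), from 57.8 ± 6.85 and 51.5 ± 5.03 CPM to 4.04 ± 1.01 and 3.74 ± 1.03 (SD, n = 3; edgeR adjusted p = 1.78e-07 and 2.13e-09). Ces1g, which acts in liver lipid handling, fell from 759 ± 34.4 to 106 ± 20.5 and 13.6 ± 5.69 CPM and stood at 11.3 ± 2.56 in BEC (SD, n = 3).

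Ces1d, a triglyceride hydrolase of hepatocytes and fat cells, fell at the first step and was higher in BEC than in full. Its levels were 333, 381 and 493 CPM in early, 45.6, 68.7 and 116 in intermediate, 44.3, 52.4 and 62.8 in full and 126, 127 and 147 in BEC. Intermediate and full overlapped, and every BEC library was above every intermediate and full library but below every early one. The first step gave -2.39 (SE 0.27, adjusted p = 5.37e-06), the second -0.53 (SE 0.26, adjusted p = 0.122) and BEC against full 1.33 (SE 0.26, adjusted p = 0.00216), all by edgeR. With the replicate number as a block, the second step was called (-0.47, edgeR adjusted p = 0.0213), as it was with no filter on low counts (0.00616). Per kilobase, Ces1d ranked first of all members in BEC, at 66.5 CPM per kilobase, with rank 3 in full and rank 9 in early.

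Of the Ces2 members, 4 of 5 were called lower at the first step and 4 of 5 at the second, where 25.7% and 19.8% of all genes tested were lower. Ces2a fell from 123 ± 7.70 CPM in early to 11.0 ± 2.71 and 1.43 ± 0.213 and stood at 1.58 ± 0.499 in BEC (SD, n = 3). Ces2e fell from 214 ± 12.1 to 58.1 ± 7.5 and 8.55 ± 2.28 and stood at 3.38 ± 0.989 in BEC (SD, n = 3). Ces2e was also lower in BEC than in full, by 1.33 on the log2 scale (edgeR adjusted p = 0.000561). Ces2g stood at 96.3, 98.1 and 121 CPM in early, 68.6, 81.8 and 80.4 in intermediate, 46.4, 46.8 and 57.8 in full and 54.3, 52.0 and 54.1 in BEC, so that BEC still held 50.8% of the early level. Its falls of 0.45 and 0.61 on the log2 scale at the first and second steps were called (edgeR adjusted p = 0.00432 and 0.000759). Under total-count scaling the first was 0.21 in the other direction (adjusted p = 0.123) and the lower level in BEC than in early was no longer called (-0.11, adjusted p = 0.390). Ces2f had 0 counts in all 3 early libraries and 1.01, 1.12 and 0.960 CPM in BEC, at least 4.1-fold higher with the floor of 3 counts in each early library. Full libraries had 0.383, 0.0446 and 0.0875 CPM. Since Ces2f became a member through its BEC libraries, these values are a description and carry no test.

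Ces3a stood at 581, 809 and 1082 CPM in early, 38.7, 82.5 and 121 in intermediate, 4.55, 6.42 and 16.5 in full and 4.00, 5.64 and 19.2 in BEC. Replicate 3 was the highest in every group and replicate 1 the lowest. The fall of 3.35 on the log2 scale at the first step was larger than this spread (SE 0.58, edgeR adjusted p = 0.000245). Ces3b fell at the second step by 2.29 (edgeR adjusted p = 0.0447), which DESeq2 (adjusted p = 0.0974), total-count scaling (0.0634) and 7 of 12 fits without 1 library did not call. The libraries overlapped, with intermediate replicate 1 at 0.189 CPM and the full libraries at 0.383, 0.401 and 0.306. Ces3a and Ces3b share 30.9% and 26.1% of their 50-base stretches with other annotated transcripts, Ces2c 42.2%, Ces2a 22.2%, Ces1c 17.0% and Ces1b 11.6%, so their counts depend on how reads matching several genes were treated, which is not given in the sources used here.

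**Figure D3:**
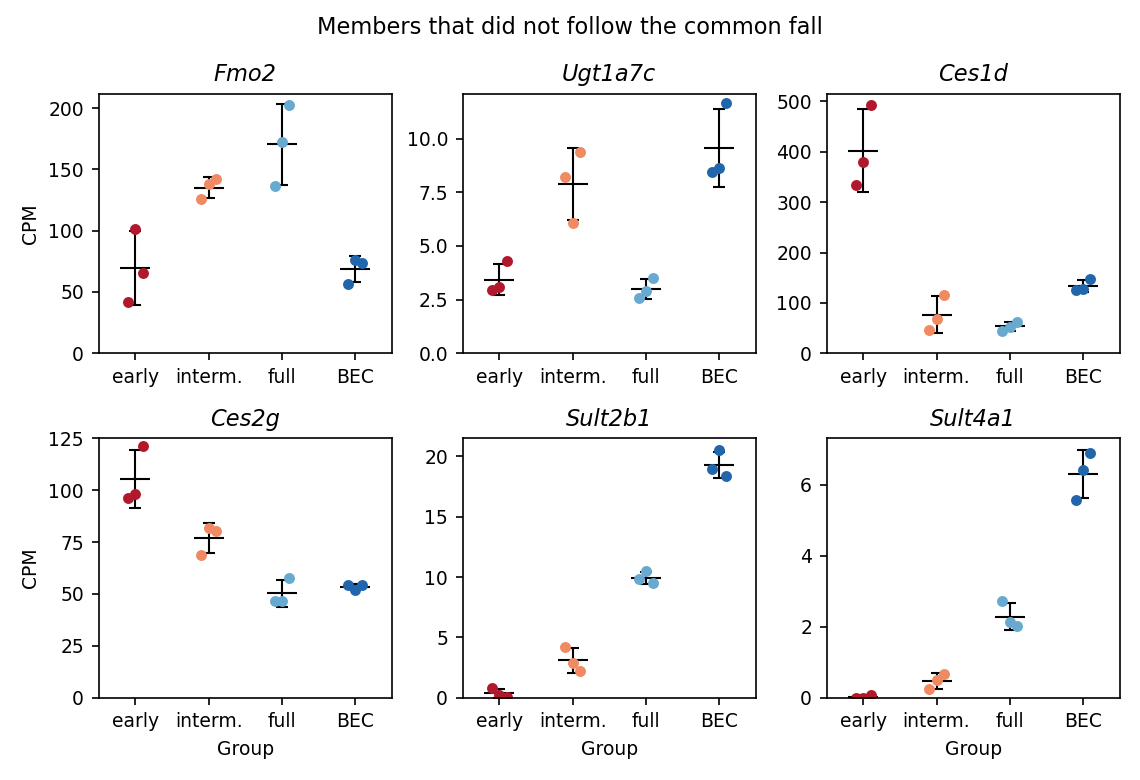
CPM of Fmo2, Ugt1a7c, Ces1d, Ces2g, Sult2b1 and Sult4a1 in every library, with mean and SD of 3 replicates; each panel has its own axis from 0. Fmo2 is higher in intermediate and full (126 to 203 CPM) than in early and BEC, Ugt1a7c is high in intermediate and BEC, Ces1d is higher in BEC than in full, and Sult2b1 and Sult4a1 rise from early to full and are higher in BEC than in full.

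The glucuronosyltransferases of the Ugt2 and Ugt3 groups fell at the first and second steps: 7 of 7 Ugt2 members and 2 of 2 Ugt3 members were called lower at each, where 25.7% and 19.8% of all genes tested were lower. For Ugt2b37 the first-step call was near the threshold (-1.64, SE 0.63, edgeR adjusted p = 0.0406) and the libraries overlapped. Ugt2b5, of a group known for conjugating steroids, stood at 807, 942 and 932 CPM in early, 153, 140 and 192 in intermediate, 10, 10.3 and 17.6 in full and 6.41, 7.97 and 14.6 in BEC. Its second-step fall of 3.67 was larger than its first of 2.47 on the log2 scale. Full and BEC overlapped and BEC against full was not called (-0.39, edgeR adjusted p = 0.402). Each BEC library was below the full library of the same number. Ugt2b34 was at 943 ± 48.1, 281 ± 42.7, 53.6 ± 16.5 and 34.5 ± 8.58 CPM, and Ugt2b36 at 594 ± 48.0, 135 ± 31.4, 11.5 ± 6.0 and 7.37 ± 2.41 (SD, n = 3). The lower Ugt2b34 level in BEC than in full (-0.64, edgeR adjusted p = 0.0440) was not called in 6 of 12 fits without 1 library, where it ranged from -0.82 to -0.36. Ugt2b1 had the largest first-step fall of the Ugt genes, -3.69 (SE 0.40, edgeR adjusted p = 3.5e-06), from 142, 208 and 250 CPM to 9.49, 18.3 and 18.5.

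Ugt3 enzymes transfer sugars other than glucuronic acid. Ugt3a2 stood at 74.2, 117 and 134 CPM in early, 13.1, 23.0 and 35.5 in intermediate, 0.468, 1.07 and 2.49 in full and 0.289, 1.26 and 2.47 in BEC. Its log2 fold change was -2.18 at the first step and -4.15 at the second (SE 0.55, edgeR adjusted p = 4.38e-05). Ugt3a1 gave -1.98 and -4.70 (SE 0.66, edgeR adjusted p = 7.50e-05), the largest fitted second-step fall of any member. Its level went from 1.67 ± 0.596 CPM to 0.0574 ± 0.0648 (SD, n = 3), which is under the floor, so its rank over Ugt3a2 is uncertain. With 1 library left out, these second-step values ran from -4.96 to -3.74 for Ugt3a2 and from -5.86 to -4.17 for Ugt3a1, all still called. The largest falls came without full replicate 3 for Ugt3a2 and without full replicate 1 for Ugt3a1. The difference between the 2 steps was not tested. Ugt2b5 shares 41.7% of its 50-base stretches with other annotated transcripts, Ugt2b37 18.3%, and Ugt3a1 and Ugt3a2 9.38% and 9.39%.

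Genes of the Ugt1a locus went different ways. Ugt1a1, the enzyme that conjugates bilirubin, stood at 115, 91.4 and 99.9 CPM in early, 15.5, 12.9 and 17.3 in intermediate, 1.91, 1.65 and 3.37 in full and 3.90, 4.01 and 6.95 in BEC. It fell by 2.74 and 2.72 on the log2 scale and was 1.10 higher in BEC than in full (SE 0.27, edgeR adjusted p = 0.0103), a call lost without full replicate 2 or BEC replicate 3 (adjusted p up to 0.0572). Ugt1a6b, a conjugator of small phenols, stood at 97.7 ± 5.82, 13.4 ± 2.53, 1.07 ± 0.371 and 1.17 ± 0.276 CPM in the 4 groups, Ugt1a9 at 61.7 ± 3.25, 5.53 ± 1.87, 0.830 ± 0.230 and 1.30 ± 0.482, and Ugt1a6a at 10.5 ± 1.36, 1.61 ± 0.368, 0.262 ± 0.0754 and 0.372 ± 0.298 (SD, n = 3).

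Ugt1a7c, whose human namesake is known from the digestive tract, rose at the first step, fell at the second and was higher in BEC than in full. It stood at 2.93, 3.09 and 4.29 CPM in early, 8.24, 6.08 and 9.40 in intermediate, 2.60, 2.90 and 3.5 in full and 8.43, 8.62 and 11.7 in BEC. Every intermediate and BEC library was above every early and full library. The 3 comparisons gave 1.2 (SE 0.24, adjusted p = 0.000797), -1.40 (SE 0.23, adjusted p = 0.000285) and 1.67 (SE 0.23, adjusted p = 0.000124) by edgeR. Ugt1a2 was at 0.395, 0.455 and 0.324 CPM in early and 0.578, 0.885 and 1.83 in BEC. Full libraries had 0.0851, 0.401 and 0.131 CPM. Ugt1a2 became a member through its BEC libraries, so its higher level there is a description and carries no test. Between 50.3% and 82.7% of the exonic bases of each of these genes lie in exons of other genes at the locus, so the split of reads among them is uncertain. No levels are compared between Ugt1a genes.

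Sult2b1 and Sult4a1 rose at the first and second steps and were higher in BEC than in full. Sult2b1, a cholesterol sulfotransferase known from skin and other epithelia, stood at 0.791, 0.273 and 0.0809 CPM in early, 4.21, 2.90 and 2.21 in intermediate, 9.87, 10.5 and 9.49 in full and 19, 20.5 and 18.4 in BEC. The groups did not overlap. Its log2 fold changes were 2.97 (SE 0.43), 1.68 (SE 0.27) and 0.95 (SE 0.24), with edgeR adjusted p of 5.14e-05, 0.000224 and 0.0115, the last lost without full replicate 3 or BEC replicate 2 (adjusted p up to 0.0554). Early replicates 2 and 3 were at or under the floor, with 3 and 1 counts against 10 in replicate 1. With 1 library left out, the first-step value ran from 2.49 to 4.12. The highest value came without early replicate 1, the highest early library (edgeR adjusted p = 1.11e-05). Sult4a1, best known from brain, had 1 count over the early libraries and 25 over the intermediate ones, a ratio of 17.4 with a 95% counting interval from 2.84 to 713. It then stood at 2.72, 2.14 and 2.01 CPM in full and 5.59, 6.43 and 6.90 in BEC, which was 1.46 higher on the log2 scale (SE 0.29, edgeR adjusted p = 0.00254). Sult6b1 had 2 counts in early and 46 in BEC, a ratio of 12.9 (95% counting interval 3.38 to 110). Both early counts lay in replicate 2, and without that library the log2 value moved from 3.54 to 6.79. Full libraries stood at 0.680 ± 0.457 CPM and BEC at 0.722 ± 0.292 (SD, n = 3). Of the biliary markers, Krt19, Krt7 and Epcam were called higher in the same 3 comparisons, as was Csf1r among the macrophage markers, while the other 4 macrophage markers summed to 17.7 to 18.4 CPM in early and to means of 6.78, 6.40 and 11.7 CPM in intermediate, full and BEC. The part of biliary cell or macrophage RNA in the levels of these genes was not tested.

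The other sulfotransferases were mostly lower in full and BEC than in early or lay near the floor. Sult1a1, which sulfates phenols, stood at 433, 524 and 363 CPM in early, 175, 215 and 205 in intermediate, 44.5, 56.0 and 56.2 in full and 37.4, 39.3 and 43.5 in BEC. It kept 45.0% of its early level in intermediate, and per kilobase it ranked second of the members in intermediate, full and BEC. BEC was lower than full by 0.38 on the log2 scale (edgeR adjusted p = 0.0761), called with the replicate number as a block (0.0323), with no filter (0.0181), in a fit of 6 libraries (0.0249) and in 3 of 12 fits without 1 library. Sult1d1, which acts on catecholamines, fell from 199, 193 and 180 CPM to 45.4, 42.5 and 46.4, then to 6.68, 4.86 and 6.25. It stood at 2.07, 1.96 and 2.97 in BEC, and the BEC-against-full value of -1.34 was called (SE 0.16, edgeR adjusted p = 4.08e-05). Sult1c2 stood at 12.7 ± 3.19, 13.5 ± 6.18, 6.19 ± 2.15 and 7.30 ± 3.62 CPM (SD, n = 3). Its second-step value of -1.12 (edgeR adjusted p = 0.0290) was not called under total-count scaling (0.0626) or without intermediate replicate 3, full replicate 1 or full replicate 2 (up to 0.175). Sult5a1 was at 0.0963, 0.140 and 0.0457 CPM in BEC and 0.511, 0.401 and 0.918 in full, groups that did not overlap. It became a member through 1 intermediate and 2 full libraries, so these values are a description and carry no test. Sult2a1, Sult3a1 and Sult1c1 had 0 counts in every library. Sult2a1 and Sult3a1 are known as female-biased genes of the mouse liver, and the libraries carried Y-linked transcripts as given above.

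**Figure D4:**
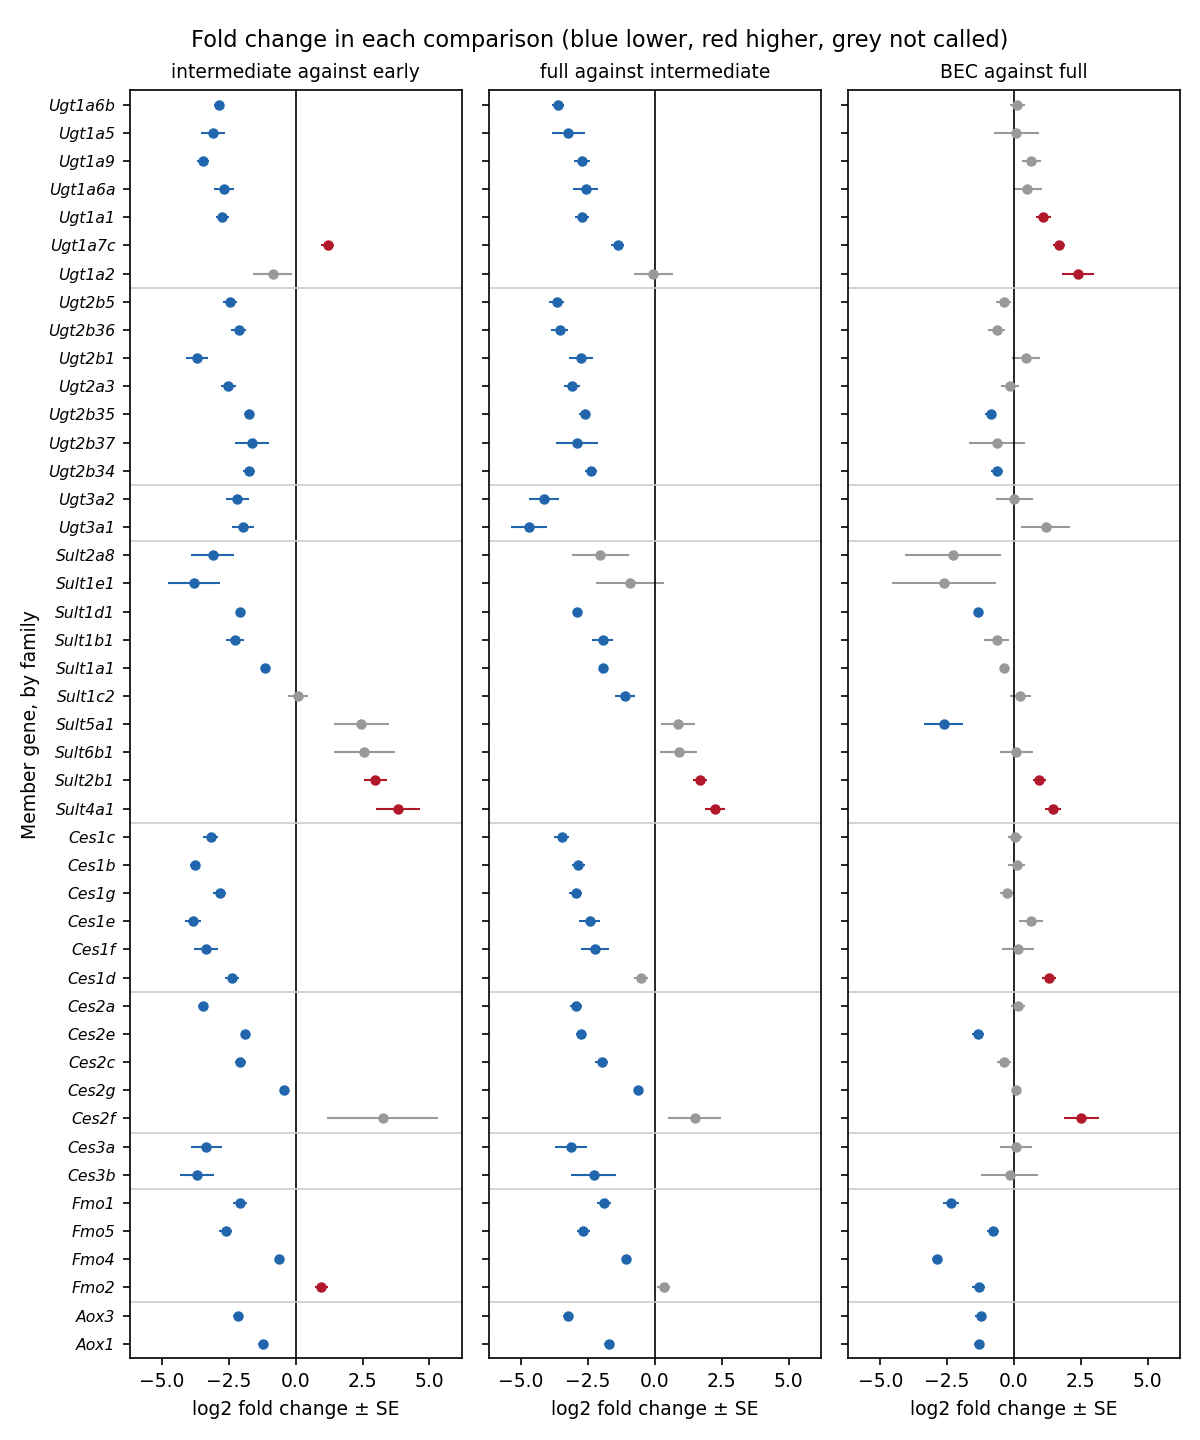
log2 fold change with SE of 45 members in each comparison (intermediate against early, full against intermediate, BEC against full); blue was called lower, red higher and grey neither. The first and second panels hold 36 and 35 blue points, the third 11 blue and 7 red.

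Between full and BEC, members differed in direction. The 11 that were lower in BEC were Fmo4, Fmo1, Fmo5, Fmo2, Aox1, Aox3, Sult1d1, Ces2e, Ugt2b34 and Ugt2b35, and Sult5a1, which had become a member through intermediate and full libraries. They include 4 of 5 Fmo, 2 of 2 Aox and 1 of 13 Ces members, where 10.6% of all genes tested were lower. The difference between families was not tested. The 7 that were higher were Ugt1a1, Ugt1a7c, Sult2b1, Sult4a1 and Ces1d, and Ugt1a2 and Ces2f, which had become members through their BEC libraries, where 10.7% of all genes tested were higher. Fmo1 was 2.37 lower on the log2 scale in BEC (SE 0.30, edgeR adjusted p = 5.89e-05), at 3.03, 4.61 and 6.40 CPM against 19.1, 17.5 and 36.1. Fmo5 was 0.79 lower (edgeR adjusted p = 0.0279), a call lost without full replicate 3, BEC replicate 1 or BEC replicate 2 (adjusted p up to 0.130). Hepatocyte markers were also lower in BEC than in full for 6 of 7 genes, with a median of -0.81. Without full replicate 3, 4 members were called higher in BEC, against 7.69% of the genes then tested.

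**Figure D5:**
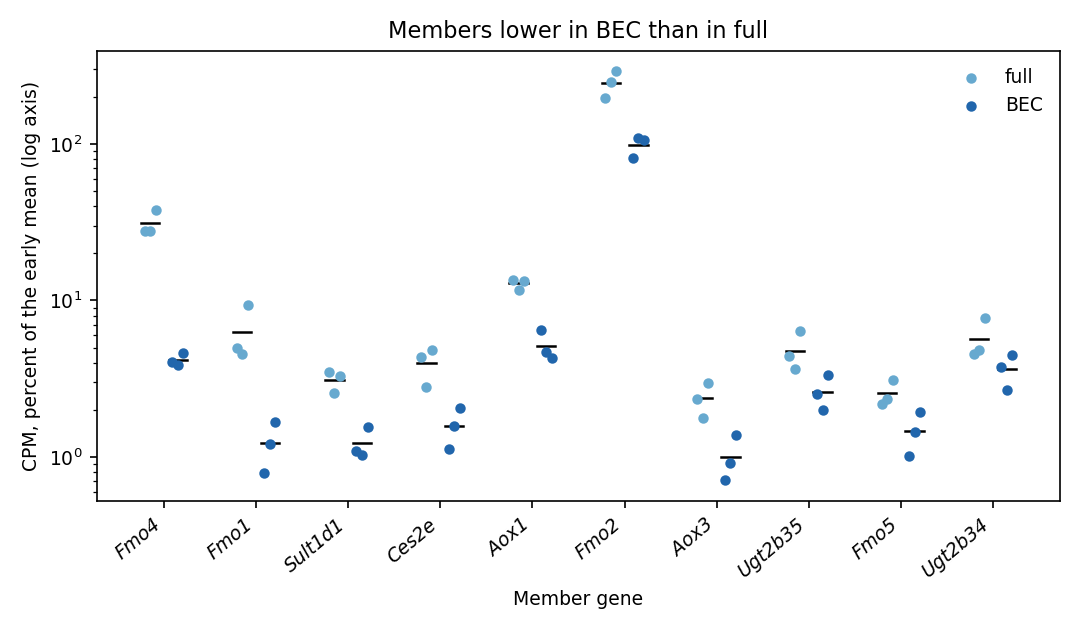
Level in full and BEC libraries, as percent of the early mean (log axis), of 10 of the 11 members called lower in BEC, with the mean of 3 replicates as a line; Sult5a1, with 2 counts in early, is left out. Fmo4 shows the widest gap (31.1% against 4.16%), and Fmo2 is the member above its early level in full.

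Genes that supply the cofactors mostly fell at the first and second steps. Of 12 cofactor genes, 11 were called lower and 1 higher at the first step (25.7% and 28.7% of all genes tested), 10 and 1 at the second (19.8% and 20.8%), and 2 and 1 between full and BEC (10.6% and 10.7%). The last counts are near the share over all genes. Ugdh, which makes UDP-glucuronic acid, fell from 1167 ± 168 CPM in early to 216 ± 13.4 and 56.7 ± 4.96 and stood at 45.7 ± 5.13 in BEC (SD, n = 3). Por, also on this list, donates electrons to cytochrome P450 enzymes, which are outside the 5 families. It fell from 787 ± 106 CPM to 249 ± 28.9 and 116 ± 6.59 and stood at 117 ± 17.5 in BEC. Papss1, which makes the sulfate donor PAPS, was the gene that rose, from 30.1 ± 4.81 to 45.4 ± 1.63 and 61.1 ± 3.99 CPM, and was higher still in BEC at 77.3 ± 4.59 (SD, n = 3; edgeR adjusted p = 0.000466, 0.00614 and 0.0364). Its paralogue Papss2, named after its values were seen, stood at 208 ± 49.4, 93.0 ± 18, 22.1 ± 3.11 and 6.13 ± 1.70 CPM in the 4 groups.

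Among 10 regulators, 7 were lower and 2 higher at the first step (25.7% and 28.7% of all genes tested), 5 and 2 at the second (19.8% and 20.8%), and 4 and 1 between full and BEC (10.6% and 10.7%), so the counts of higher genes are near or under the share over all genes. Hnf4a, a central hepatocyte factor, fell by 0.84 and 1.77 on the log2 scale, and Rxra, the partner of the xenobiotic receptors, by 1.58 and 1.55. The receptors Nr1i3 (CAR) and Nr1i2 (PXR), named after their values were seen, had first-step values of -3.78 and -1.41 (edgeR adjusted p = 2.59e-07 and 1.01e-07). Ahr, the aryl hydrocarbon receptor, was at 135 ± 13.3, 70.8 ± 2.58, 102 ± 3.64 and 203 ± 15.6 CPM, so it fell at the first step, rose at the second and was higher in BEC than in full. Nfe2l2, the antioxidant response factor, rose at the first step from 152 ± 12.9 to 213 ± 10.1 CPM (edgeR adjusted p = 0.000867).

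Of 18 other drug-modifying enzymes, 14 were lower and 0 higher at the first step (25.7% and 28.7% of all genes tested), 14 and 1 at the second (19.8% and 20.8%), and 9 and 1 between full and BEC (10.6% and 10.7%). Ephx1, the microsomal epoxide hydrolase, fell from 1081 ± 162 to 379 ± 36.2 and 209 ± 22.7 CPM and stood at 213 ± 13.7 in BEC (SD, n = 3). Bche, a serum cholinesterase, was at 273 ± 27.8, 247 ± 18.9, 320 ± 12.4 and 309 ± 51.8 CPM and rose at the second step (0.37, edgeR adjusted p = 0.0248). Xdh fell at the first and second steps and was 0.53 higher in BEC than in full (edgeR adjusted p = 0.000886). Among the 7 conjugate exporters and deconjugating enzymes tested, 4 were lower and 0 higher at the first step, 3 and 1 at the second, and 4 and 1 between full and BEC, against the same shares of all genes. Abcc2, which exports conjugates into bile, stood at 1523 ± 97.2, 563 ± 73.6, 236 ± 31.6 and 46.5 ± 8.75 CPM, and its BEC-against-full value was -2.35 (edgeR adjusted p = 2.23e-07). Abcc3, its counterpart toward the blood, gave -1.30 and -1.18 at the first and second steps, both called. Abcc4 rose at the second step (0.62, edgeR adjusted p = 0.00460) and Abcb1a was higher in BEC than in full (0.64, edgeR adjusted p = 0.0318).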

How the data were processed

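RNA of 12 libraries, 3 for each of 4 sorted groups, was analysed from the table of raw counts per gene symbol that the authors deposited. STAR 2.7.10b, featureCounts 2.0.1, DESeq2 and GRCm39 are named in the submitters' processing notes, without roles. The annotation, strand setting and treatment of reads matching several genes are not given in the sources used here. A second deposited table, scaled by size factors, was not used.

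Low-count genes were removed with filterByExpr, given the groups, and 16210 genes were tested, all 46 members among them. Counts were scaled by TMM and fitted with edgeR 4.0.16 (R 4.3.3, limma 3.58.1) in 1 quasi-likelihood model of 4 group means over all 12 libraries. A gene was called where p, adjusted by Benjamini-Hochberg across all tested genes, was below 0.05. SE is the log2 fold change divided by the square root of F. The common biological coefficient of variation was 14.8%. The procedure was tested on simulated data. Alternatives were DESeq2 1.42.0, other scaling, other filters, 6-library fits, a minimum 2-fold change, a replicate block and leaving out each library.

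Groups and replicate numbers come from the sample titles. Same-numbered libraries deviated together from the group means across genes, with r from 0.121 to 0.293 (early and intermediate), 0.137 to 0.322 (intermediate and full) and 0.170 to 0.257 (full and BEC), so the numbers pair the libraries in these comparisons; what they mark is not stated. For early and BEC, r was 0.0442 to 0.145, above 0 but lower for each replicate number than in those comparisons. The same numbers run through all 4 groups, so whether they also pair early and BEC is not known. Replicates differed beyond counting error, with chi-square per degree of freedom from 4.95 to 52.1.

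Members named with values were the 3 highest per family or subfamily, every member called higher anywhere, the 2 largest changes in each direction per comparison with at least 5 CPM, and a fixed list. Pathway genes were named when called against the median of their list or among its 2 highest. The members and lists were chosen with earlier results of these data known. Transcript lengths and shared exons or 50-base stretches come from GENCODE M21, promoters from RefSeq on GRCm38.p6, matched by symbol. Some genes chosen by these rules are not reported here.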

Additional observations from a re-analysis of the deposited data

How the results depend on the processing

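With total counts only, the median of all genes moved to 0.72, 0.21, 0.01 and 1.0 on the log2 scale over the first and second steps, BEC against full and BEC against early, and 85.6%, 72.6%, 50.3% and 80.3% of calls were higher, against 52.8%, 51.2%, 50.1% and 54.8%. The family sums in intermediate, full and BEC then stood at 35.9%, 5.72% and 4.47% of early for Ugt, 63.1%, 21.7% and 21.1% for Sult, 21.1%, 5.27% and 7.6% for Ces, 35.3%, 17.3% and 7.13% for Fmo, and 49.6%, 12.7% and 5.15% for Aox. The sign changed for Ces2g (0.212) and Fmo4 (0.0505) at the first step and for Fmo2 (0.850) and Sult1c2 (0.0701) in BEC against early. Fmo2 in BEC against early was 0.0129 with no filter, 0.00331 with a mean of at least 50 counts, 0.0225 with a replicate block, and from -0.28 to 0.35 with 1 library left out, changing sign without early replicate 2 or BEC replicate 1. With a mean of at least 50 counts, 34 members were among 12245 genes tested, and 1 member was higher in full than in intermediate, 4 in BEC than in full and 2 in BEC than in early, against 23.2%, 11.6% and 41.9% of those genes. Against a minimum 2-fold change, 2 of 46 were higher at the first step (10.1% of all genes), and 1 higher and 2 lower in BEC than in full (2.5% and 2.45%). Leaving out 1 library, members higher in BEC than in full numbered 4 to 7, with 4 without full replicate 3 (7.69% of all genes). The replicate block gave 5 higher and 37 lower members at the first step and 2 and 36 at the second. Between full and BEC it gave 7 and 13. The shares of all genes called were 30.1% and 27.1%, 22.9% and 22.1%, and 12.6% and 12.6%. Of the recomputed values it changed the calls of Ces1d at the second step and Sult1a1 in BEC against full. It also changed that of Sult1c2 in BEC against early (-0.86, edgeR adjusted p = 0.000325), where same-numbered libraries deviated together less. The cause of these changes was not tested. At this depth, members near the floor (Sult5a1, Sult6b1, Ugt1a2, Ces2f) give only coarse values.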
